A study of Homo sapiens with 3 samples.

Results

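The 5 genes TPR, RANBP2, NUP205, NUP214 and NUP98 encode proteins of the nuclear pore complex, and 76 of the 17802 YBX1 peaks (0.427%) lay over them. A peak was counted for a gene when it overlapped the hg19 span of the gene by at least 1 base. YBX1 is an mRNA-binding protein with a cold-shock domain, known as a reader of m5C, a methylated cytosine in RNA. Its bound RNA was captured from the human bladder carcinoma line T24. All 3 libraries came from cells that overexpress Flag-tagged YBX1: 1 of input RNA taken before capture, 1 of RNA captured on anti-Flag beads (YBX1 RIP), and 1 of captured RNA treated with bisulfite to read m5C. For the bisulfite library one label names T25 and another T24 as the cell line, and the latter was followed. The peak list is a single list with no column per library, and no group has a replicate, so every value below describes 1 list, with no spread between cultures and no test between conditions. No capture from untagged cells is among the samples, and it is not stated whether peaks were called against the input, so YBX1 binding and the abundance of an RNA in the lysate cannot be told apart. Read depth behind each peak is unknown.

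The nuclear pore complex is the channel through the nuclear envelope by which mRNA and proteins pass between nucleus and cytoplasm. Its proteins, the nucleoporins, fall into scaffold members that build the ring and members with phenylalanine-glycine (FG) repeats that line the channel and bind transport receptors. Filaments reach from the ring into both compartments. TPR forms coiled-coil filaments of the nuclear basket. RANBP2, also called NUP358, forms the cytoplasmic filaments, carries FG repeats and binds the GTPase Ran. NUP214 is an FG protein of the cytoplasmic face that takes part in mRNA export. NUP98 lies on both faces of the channel and carries FG repeats; its gene also encodes the scaffold protein NUP96, which is cut from a joint precursor. NUP205 is a scaffold protein of the inner ring.

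The number of peaks differed between the genes, all of which were chosen with the list already known; the share of all genes with a peak was not computed. TPR, on the minus strand of chromosome 1 (186280784 to 186344457), held 28 peaks in a span of 63.7 kb. NUP98, on the minus strand of chromosome 11 (3696240 to 3819022), held 18 in 123 kb. RANBP2, on the plus strand of chromosome 2 (109335937 to 109402267), held 13 in 66.3 kb. NUP205, on the plus strand of chromosome 7 (135242662 to 135333505), held 9 in 90.8 kb, and NUP214, on the plus strand of chromosome 9 (134000981 to 134108987), held 8 in 108 kb. TPR has the shortest span of the 5 and the most peaks, 36.8% of the 76.

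Per 10 kb of span there were 4.4 peaks in TPR, 1.96 in RANBP2, 1.47 in NUP98, 0.991 in NUP205 and 0.741 in NUP214. The density in TPR was 5.94 times that in NUP214. The order by share of the span under peaks was nearly the same, with 21.5% in TPR, 14.6% in RANBP2, 6.97% in NUP98, 4.7% in NUP214 and 4.21% in NUP205. The last 2 genes changed places because NUP214 has 1 wide peak and NUP205 has none. Peaks covered 13.7 kb of TPR, 9.65 kb of RANBP2, 8.56 kb of NUP98, 5.08 kb of NUP214 and 3.83 kb of NUP205, or 40.8 kb of the 452 kb of the 5 spans together (9.04%). Spans include introns, and exon positions on hg19 were not used here, so these shares are not shares of the mRNA.

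**Figure D1:**
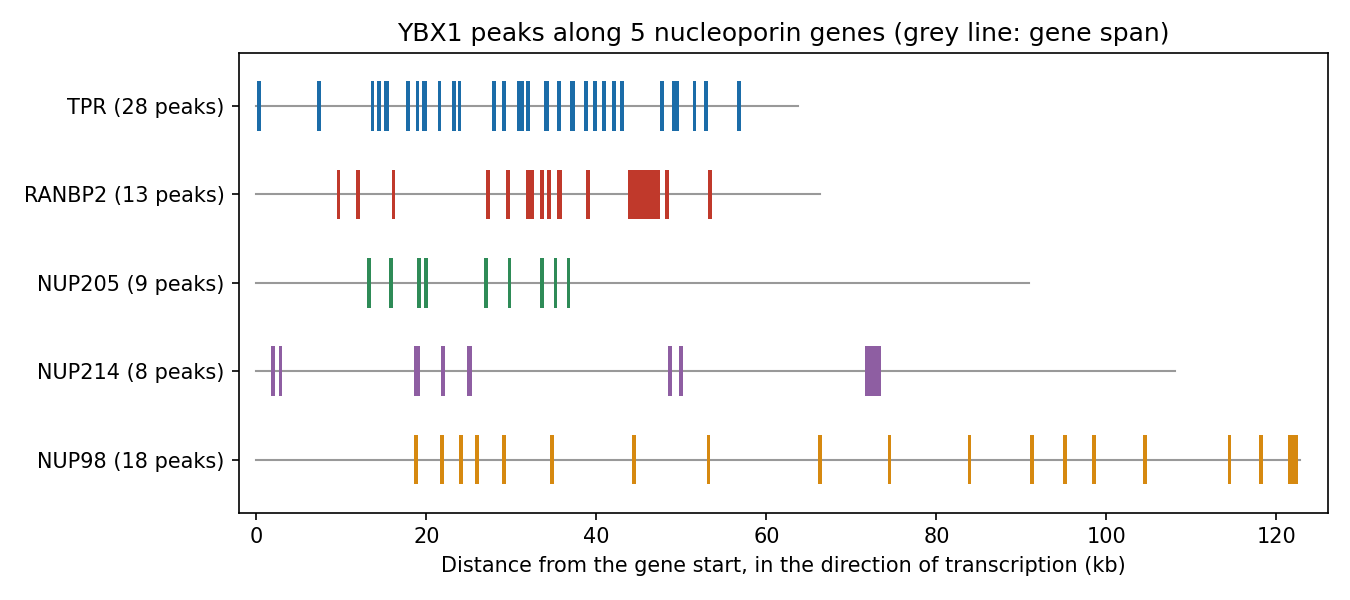
Each YBX1 peak is drawn to scale as a box on the span of its gene (grey line); the horizontal axis is the distance from the gene start in kb, in the direction of transcription. TPR is filled densely over most of its span and NUP205 has no peak after 36.9 kb. RANBP2, NUP214 and NUP98 each have 1 box wider than 1000 bp.

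Chromosome-wide windows give a background for these counts. Chromosome 1 was divided from its first peak onwards into 3902 windows of the length of TPR; 0.0256% of them, or 1 window, held 28 peaks or more. Among the 539 of those windows with any peak the share was 0.186%. For RANBP2 the corresponding shares on chromosome 2 were 0.22% of 3634 windows and 2.22% of the 361 with any peak. For NUP98 on chromosome 11 they were 0.367% of 1091 and 1.99% of 201. For NUP205 on chromosome 7 they were 1.09% of 1744 and 7.88% of 241, and for NUP214 on chromosome 9 they were 2.54% of 1297 and 15.1% of 219. Both shares were lowest for TPR and highest for NUP214. The windows form a fixed grid that can split a gene between windows, whereas each gene was counted over its exact span. The genes were also chosen with the list already known, so a low share follows at least in part from that choice. The windows cover transcribed and untranscribed sequence alike and differ from the genes in exon content and RNA level.

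Few peaks lay around the genes. Flanks as long as each gene were examined on either side, 903 kb in all, and they held 2 peaks, against 76 in the genes. These flank peaks were 25.4 kb past the end of NUP214 and 57.4 kb before the start of NUP98. TPR, RANBP2 and NUP205 had none in either flank. The nearest peak outside RANBP2 lay 1160 kb downstream, that of TPR 577 kb downstream and that of NUP205 393 kb upstream. Peak density was 76.0 times higher in the 5 genes than in the flanks, a ratio that rests on the 2 flank peaks. Without TPR the ratio was 48.0, without NUP98 116 and without NUP214 136. Because the 5 genes were chosen with the list already known, a high ratio follows at least in part from that choice. The flanks may also hold other genes or untranscribed sequence, so the ratio is a description only.

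**Figure D2:**
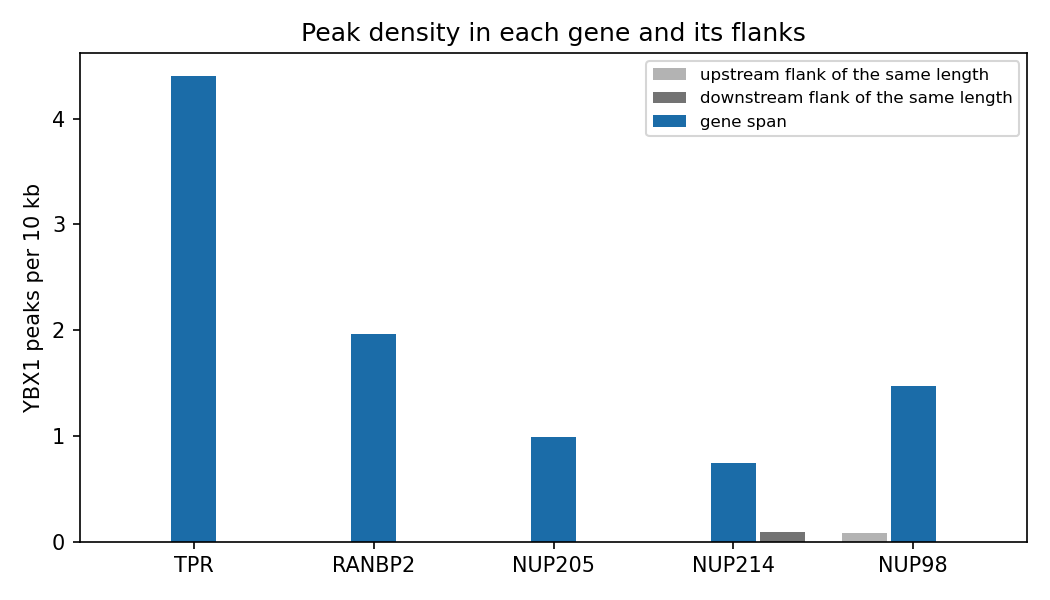
Bars give YBX1 peaks per 10 kb (vertical axis from 0) in each gene span and in an upstream and a downstream flank of the same length. The gene bars run from 0.741 in NUP214 to 4.4 in TPR, and the only flanks with a visible bar are the downstream flank of NUP214 and the upstream flank of NUP98, with 1 peak each.

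Since the peaks have no strand, a peak in a shared stretch cannot be assigned to one of 2 overlapping genes. In the RefSeq table (GRCh38.p14), used here for names and order only, TPR overlaps PRG4, which encodes a lubricating glycoprotein of joints, at its 3′ side, as well as a U6 small nuclear RNA pseudogene, and is followed by ODR4 at its 5′ side. The last peak of TPR ended 6.66 kb before the end of the TPR span. NUP205 overlaps no gene there and lies between CNOT4 and STMP1. NUP214 lies between AIF1L and FAM78A, and NUP98 between CHRNA10 and PGAP2; the records that overlap these 2 genes are a snoRNA and small nuclear RNA pseudogenes. RANBP2 is the uncertain member, since RGPD genes are close copies of it. The table lists 8 gene names that begin with RGPD on the same chromosome, not sorted by gene type. No source used here states how reads shared between such copies were placed. The RANBP2 record of that table also overlaps 18 other genes, which are not named here. Whether any of them overlaps the hg19 span used here was not tested.

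All 76 peaks lay whole inside their gene. The outermost were the first peak of TPR, 87 bp inside the gene start, and the last peak of NUP98, 286 bp inside the gene end, so no peak sat on a boundary. The position of the peaks along the gene differed between members. Each span was divided into 3 parts of equal length. By the midpoint of each peak, 28 lay in the part nearest the gene start (36.8%, 95% Wilson interval 26.9 to 48.1%), 30 in the middle part (39.5%, 29.2 to 50.7%) and 18 in the last (23.7%, 15.5 to 34.4%). These intervals, like those below, reflect counting error alone and take no account of the transcript that peaks of a gene share. By bases under peaks in place of midpoints, the successive parts held 31.0%, 37.2% and 31.8%, so the last part was not the lowest by that measure. The single genes differed from the pooled shares by midpoint. NUP205 had 6, 3 and 0 peaks in its successive parts and NUP214 had 5, 2 and 1. TPR had 8, 14 and 6 and RANBP2 had 3, 7 and 3, with most in the middle. NUP98 had 6, 4 and 8.

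**Figure D3:**
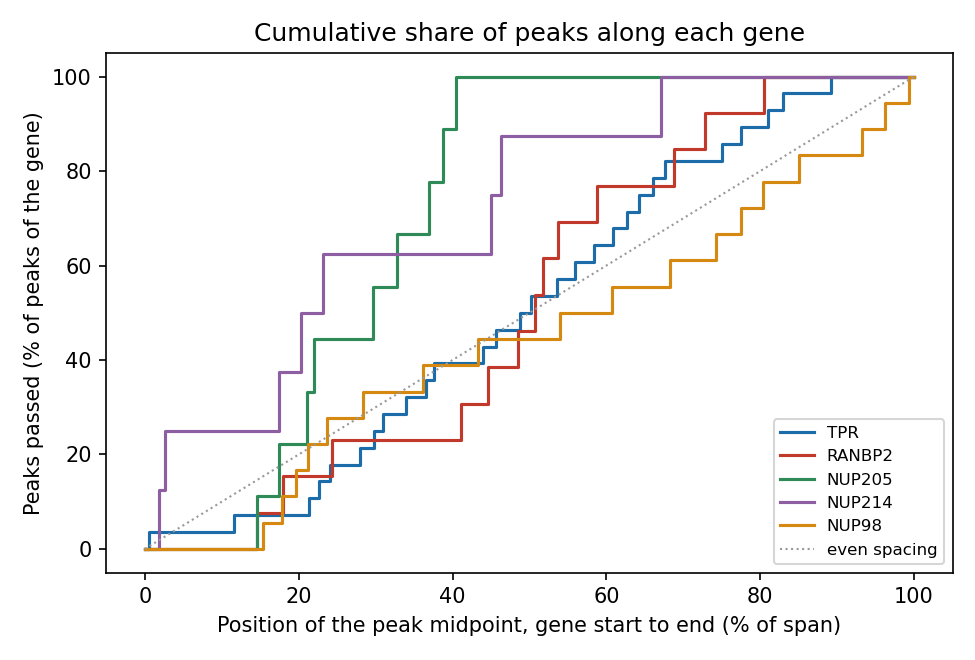
Lines give the cumulative percentage of the peaks of each gene (vertical axis) against the position of the peak midpoint as a percentage of the span, from gene start to gene end; the dotted line marks even spacing. NUP205 reaches 100.0% of its peaks at 40.4% of the span, whereas NUP98 reaches it at 99.3%.

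In TPR, the basket protein, peaks lay along nearly the whole gene, with 89.4% of the span between the first and the last. Its first peak, at chr1:186343861-186344370, began 87 bp from the gene start and was 509 bp wide. The following gaps were 6580 and 5856 bp long, with a single peak between them. From there to the last peak, no gap reached 5 kb. The resulting run of 26 peaks extended over 43.6 kb, or 68.4% of the gene, from chr1:186287444 to chr1:186331011, and 29.3% of it was under peaks. Of all 8754 runs in the list that result from joining peaks within 5 kb, 0.251% (22 runs) had as many peaks. The median gap between neighbouring TPR peaks was 972 bp and the smallest 237 bp. Its widths ran from 400 to 825 bp with a median of 450 bp, so that none of the 28 was as wide as 1000 bp. The widest, chr1:186312944-186313769, lay near the centre of the gene at 48.8% of the span. The next, of 773 bp, lay at 77.5%. After the last peak the final 6.66 kb of the gene were free.

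RANBP2, the filament protein with the Ran-binding domains, held the widest peak of the 5 genes. This peak, chr2:109379664-109383431, was 3767 bp wide and began 43.7 kb from the gene start. It contained 39.0% of all bases under RANBP2 peaks, and 93 peaks of the list (0.522%) were at least as wide. It was not isolated: one peak ended 4493 bp before it and another began 606 bp after it. RANBP2 is known for an unusually long internal exon, but whether the peak lies in it was not tested, since no hg19 exons were used. The second widest RANBP2 peak, chr2:109367655-109368586, was 931 bp wide, and the other 11 were between 415 and 528 bp. The peaks formed a run of 3, from 9.47 kb after the gene start, and, after an empty 10.7 kb, a run of 10 over 26.6 kb, 31.5% of which was under peaks. Runs of at least 10 peaks made up 2.46% of all runs. The last 12.7 kb of RANBP2 held no peak.

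NUP98, whose transcript also encodes NUP96, had peaks over 84.7% of its span from the first to the last, at wide distances. They fell into 10 runs, of which 7 were single peaks, and the median gap of 5252 bp was the largest of the 5 genes. The first peak lay 18.5 kb from the gene start, after the longest empty stretch of the gene. It opened a run of 5 peaks over 10.8 kb (chr11:3789667-3800477). The widest peak was the last one, chr11:3696526-3697708, at 1182 bp, and it ended 286 bp from the gene end. It held 13.8% of the bases under NUP98 peaks, and 7.02% of all peaks in the list were as wide. The other 17 were between 401 and 497 bp wide. NUP98 was the only one of the 5 with a peak in the last 5 kb of its span, where it had 2.

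NUP205, the scaffold protein of the inner ring, carried peaks under 500 bp only, and all of them had their midpoint within the first 40.4% of the span. The 9 widths lay between 403 and 443 bp, with a median of 419 bp. The first peak, chr7:135255721-135256160, began 13.1 kb from the gene start. The last, chr7:135279171-135279611, was followed by 53.9 kb, or 59.3% of the gene, without a peak. Between first and last peak lay 23.9 kb, 26.3% of the span, with a run of 4 peaks over 7.17 kb and a run of 5 over 10.1 kb.

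NUP214, of the cytoplasmic face, had its 8 peaks in 4 groups separated by long empty stretches. A pair of peaks lay 1.79 kb from the gene start, a group of 3 began at 18.6 kb, and a pair at 48.4 kb. The last peak stood alone at 71.6 kb, after an empty stretch of 21.4 kb. This single peak, chr9:134072571-134074417, was 1846 bp wide, held 36.4% of the bases under NUP214 peaks and was matched or exceeded by 2.83% of the list. It was followed by 34.6 kb without a peak. The next widest, of 663 bp, was the first of the group of 3, and the other 6 were between 401 and 499 bp.

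The widest peak was the last peak of the gene in both NUP98 and NUP214, with its midpoint at 99.3% and 67.1% of the span. In RANBP2 (68.8%) and TPR (48.8%) it lay inside a run, with peaks on both sides. In NUP205 the widest and the second differed by 1 bp (443 and 442 bp).

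**Figure D4:**
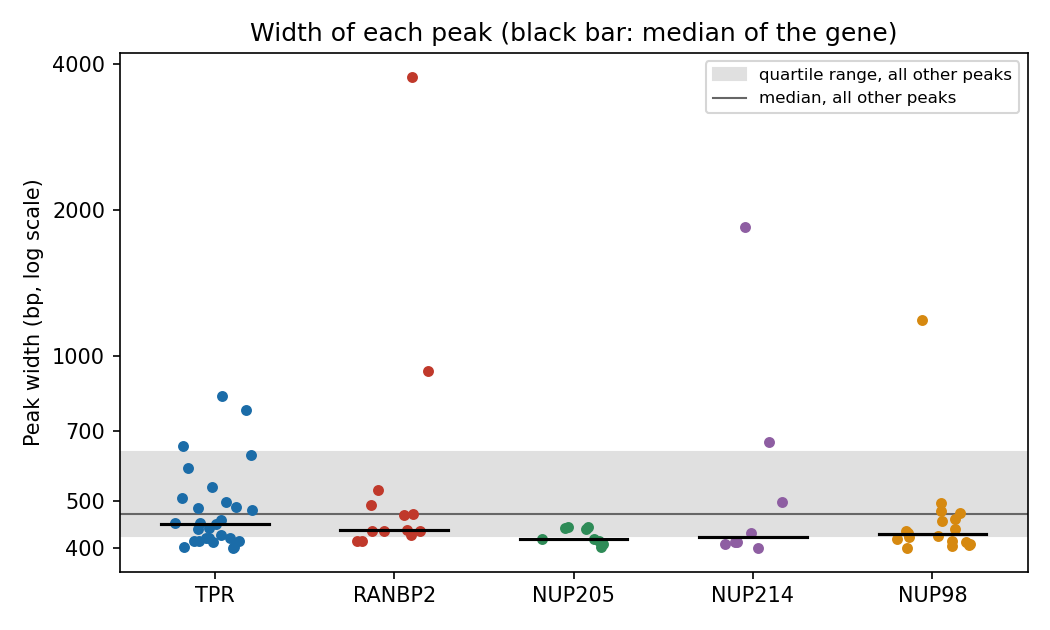
Each point is the width of 1 peak in bp on a log axis, by gene, with a black bar at the median of the gene; the grey band and line are the quartile range (425 to 632 bp) and median (471 bp) of all peaks outside the 5 genes. The medians of the 5 genes, from 419 to 450 bp, all lie below that line, and 3 points lie above 1000 bp.

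Most peaks over the 5 genes were narrower than 500 bp. Of the 76, 63 (82.9%, 72.9 to 89.7%) were of such a width, against 59.1% (58.3 to 59.8%) of the other peaks and 59.2% of the whole list. All 9 in NUP205, 17 of 18 in NUP98, 10 of 13 in RANBP2, 6 of 8 in NUP214 and 21 of 28 in TPR were that narrow. Their median width was 436 bp (quartile range 415 to 481 bp), against 471 bp in the rest. Wide peaks of at least 1000 bp numbered 3 (3.95%, 1.35 to 11.0%), 1 each in RANBP2, NUP214 and NUP98, against 9.82% (9.39 to 10.3%) of the rest and 9.8% of the list. The interval of this share includes the share in the rest. The 3 wide peaks held 16.7% of the bases under peaks in these genes; wide peaks held 27.7% of those in the rest. Of the 76 peaks, 1 was exactly 400 bp wide, the smallest width in the list (1.32%, 0.233 to 7.08%), against 6.41% of the rest and 6.39% of the list.

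Most of these peaks had a close neighbour. Another peak lay within 5 kb of 66 of the 76 (86.8%, 77.4 to 92.7%), against 67.9% (67.2 to 68.6%) of other peaks and 68.0% of the list. This held for all 13 in RANBP2 and all 9 in NUP205, for 26 of 28 in TPR, 7 of 8 in NUP214 and 11 of 18 in NUP98. Neighbours within 5 kb on both sides were present for 44 of 76 (57.9%, 46.7 to 68.4%), against 33.6% of the rest and 33.7% of the list. This was not shared by all 5 genes, since most of the 44 lay in the run of 26 peaks in TPR. In NUP98, where 7 of 18 peaks stood alone, and in NUP214 the share was below that of the rest. Of the 93 peaks in the list at least as wide as that of RANBP2, 27 (29.0%, 20.8 to 38.9%) had them, as did the RANBP2 peak itself. Inside the genes the median gap was 1949 bp over 71 gaps, from 237 bp in TPR to 23.1 kb in NUP214. No test was made of these differences from the rest of the list, because peaks of a gene are not replicates and there is 1 list. The genes were also chosen with the list known, and each holds at least 8 peaks, whereas the rest includes isolated peaks. How much of the higher shares with neighbours follows from that choice was not tested.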

How the data were processed

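RNA of T24 cells with Flag-tagged YBX1 was sequenced as paired-end 150 bp reads, per the labels' protocols. The deposited values are peak positions on hg19 (chromosome, start, end), per the file headers, with no height, score, p-value, strand, gene or read count. Trimmomatic and MACS2 are named, without versions or settings, in the submitters' processing notes, and no source used here gives the aligner, the threshold or the libraries in the call. Coordinates are as deposited, since it is not stated whether they count from 0 or 1, and width means end minus start. Gene spans on hg19 were those given for these 5 genes; strands came from the RefSeq promoter table. Members and measures were chosen with earlier results of these data known. All 5 genes are named. Within a gene, the widest peak, those nearest the ends and the longest empty stretch are given. No peak sequence was read, because no hg19 genome was used; protein lengths, FG repeat counts, ratios to coding length and the other nuclear pore genes were not analysed here. Shares carry 95% Wilson intervals. Python 3.11.15, numpy 2.4.6, pandas 2.3.3, scipy 1.17.1 and matplotlib 3.10.9 were used. The functions that find the peaks in a span, merge peaks and measure gaps were tested on simulated data. That check did not cover the step that formed the reported runs or the positions along each gene. Alternatives were the overlap required, wider spans, merging, width and distance limits, longer flanks, parts counted by peak bases and leaving out each gene.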

Additional observations from a re-analysis of the deposited data

How the results depend on the processing

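Of 64 alternatives, 47 left the value within the interval or 1.5 times of that reported. Requiring at least 50% of a peak or the whole peak inside the gene, extending spans by 1 kb and merging peaks closer than 100 bp all left 76 peaks. None of these settings, which are counted among the 47, could change the number. All peaks lay whole inside their gene, the smallest gap between them was 237 bp, and the nearest outside peak was 25.4 kb away. They therefore say nothing about how stable the counts are. With peaks under 500 bp removed there were 13, with 7 in TPR, 3 in RANBP2, 2 in NUP214, 1 in NUP98 and 0 in NUP205. The share of the span under peaks was then 7.07% in TPR, 7.88% in RANBP2, 2.32% in NUP214, 0.963% in NUP98 and 0% in NUP205, so that RANBP2 was above TPR; this follows from the narrow peaks removed. Joining distances of 2 and 10 kb gave a share with a neighbour of 61.8% and 98.7%, by construction, and without NUP98 it was 94.8%. The density against the flanks was 84.1 times with flanks of 100 kb, 48.0 without TPR, 116 without NUP98 and 136 without NUP214. The omission of single genes was chosen after seeing the data. No paired analysis was possible because no group has more than 1 sample. The list gives no reads per peak, so the depth that a peak required cannot be given.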
